A study of Mus musculus with 20 samples.

Results

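The NDR kinase gene *Stk38* and 9 genes of the Hippo pathway were followed in transplanted lung tumors of mice that received cisplatin, KW6002, their combination or vehicle. These 10 genes came from a table of 35226 genes, of which 16665 passed a filter on low counts, and all 10 members were among them. *Stk38* was selected on its values in cotreated and cisplatin-treated tumors, where it had the smallest *P* value of the 382 genes called higher in cotreated tumors. Its values in those groups are therefore described and not tested. The other members were taken by role: the second NDR kinase *Stk38l*, the LATS kinases *Lats1* and *Lats2*, the adaptors *Mob1a*, *Mob1b* and *Sav1*, the effectors *Yap1* and *Wwtr1*, and the target gene *Ankrd1*.

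LLC1, a Lewis lung carcinoma line of C57BL origin, was grown under the skin of the right flank of male C57Bl6/J mice aged 8 to 10 weeks, and animals were assigned at random once tumors measured 100 mm3. The groups were vehicle alone, KW6002 alone, cisplatin alone and cisplatin with KW6002 (cotreatment), with 5 tumors each and no genetic change in any group. Cisplatin is a platinum drug that crosslinks DNA, and KW6002 (istradefylline) is an antagonist of an adenosine receptor. Polyadenylated RNA of the 20 tumors was sequenced to totals of 28371364 to 40965731 counted reads per tumor. Each library holds the injected line together with whatever host cells had entered the tumor. Each tumor was 1 sample. The *P* values set differences between group means against a spread between tumors that was estimated over all 4 groups.

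In the Hippo pathway, the kinases MST1 and MST2 (encoded by *Stk4* and *Stk3*), with the scaffold SAV1, activate the LATS kinases with the help of the MOB1 adaptors. LATS kinases phosphorylate the coactivators YAP (*Yap1*) and TAZ (*Wwtr1*), which keeps them out of the nucleus, where they would otherwise act with TEAD transcription factors. The NDR kinases STK38 and STK38L are relatives of the LATS kinases in the same AGC subfamily. They also bind MOB proteins, are phosphorylated by MST-type kinases, and are known for roles in the cell cycle, centrosome duplication and autophagy. Much of this signaling runs through phosphorylation, which RNA counts do not measure.

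The library codes in the labels fell into an earlier run of 8 tumors and a later run of 12, which were unevenly spread over the groups. Of the vehicle group, 4 tumors carried later codes, as did 3 each of the KW6002 and cisplatin groups and 2 of the cotreated group, so values are also given within runs. Among marker genes, *Krt8* and *Krt18* were present in every group, with mean levels in CPM (reads of a gene scaled to the TMM-adjusted total of its library) of 273 for *Krt18* and 129 for *Krt8* in vehicle tumors, while *Epcam* and the alveolar gene *Sftpc* were close to 0. *Napsa*, another lung epithelium gene, had means of 4.92, 5.99, 6.46 and 5.59 CPM with vehicle, KW6002, cisplatin and cotreatment. Summed over 6 skeletal muscle genes, the level ranged from 1.55 CPM to 1169 CPM, the latter in cotreatment replicate 4. The summed level of 5 endothelial genes was 124 to 182 CPM in vehicle tumors, 59.3 to 80.0 CPM after cisplatin and 61.1 to 94.8 CPM after cotreatment. In tumor RNA, fewer cells of a type and less RNA per cell cannot be told apart.

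*Stk38* (ENSMUSG00000024006) is a protein-coding gene on the minus strand of mouse chromosome 17 at chr17:28970880-29007995 (GRCm38). Its promoter window is shown because the description of the locus turns on this gene, and that of *Stk38l* because it was the only tested member called in a comparison with cotreated tumors. The *Ankrd1* window is shown as that of a known YAP/TAZ target. Each window holds 300 bases from RefSeq (GRCm38.p6), 250 before and 50 after the start that RefSeq annotates, which for *Stk38l* and *Ankrd1* is not the start of the GENCODE gene positions given elsewhere, printed 5′ to 3′ on the strand of the gene. Capitals mark matches on either strand to the TEAD letters GGAATG, to the cyclic AMP response element TGACGTCA or to GCATGCGC, a core of the NRF1 motif, which were searched for on both strands. These letters were chosen after the sequences had been read.
Stk38, chr17:29007946-29008245, minus strand: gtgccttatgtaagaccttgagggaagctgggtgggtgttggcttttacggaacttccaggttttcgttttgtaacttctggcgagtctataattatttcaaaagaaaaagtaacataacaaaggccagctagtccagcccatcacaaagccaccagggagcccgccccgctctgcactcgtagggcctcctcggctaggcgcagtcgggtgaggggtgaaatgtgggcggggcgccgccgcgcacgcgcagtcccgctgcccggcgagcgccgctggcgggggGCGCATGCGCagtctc
Stk38l, chr6:146724680-146724979, plus strand: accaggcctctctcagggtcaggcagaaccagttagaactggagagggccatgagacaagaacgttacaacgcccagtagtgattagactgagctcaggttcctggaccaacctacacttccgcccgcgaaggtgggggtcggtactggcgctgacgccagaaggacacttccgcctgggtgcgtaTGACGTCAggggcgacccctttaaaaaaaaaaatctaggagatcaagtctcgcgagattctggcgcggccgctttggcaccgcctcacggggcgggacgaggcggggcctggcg
Ankrd1, chr19:36119795-36120094, minus strand: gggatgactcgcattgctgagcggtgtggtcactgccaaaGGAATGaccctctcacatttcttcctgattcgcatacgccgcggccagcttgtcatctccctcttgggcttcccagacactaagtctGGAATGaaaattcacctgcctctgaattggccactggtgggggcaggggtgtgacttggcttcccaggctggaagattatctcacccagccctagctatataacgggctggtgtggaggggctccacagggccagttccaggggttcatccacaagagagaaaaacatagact
The *Stk38* window held the NRF1 letters on each strand, in 2 matches that overlap each other, at bases 285 to 292 and 287 to 294 of the window, downstream of the start. The *Stk38l* window held 1 cyclic AMP response element at bases 187 to 194, and neither NDR kinase window held the TEAD letters. The *Ankrd1* window held the TEAD letters at bases 41 to 46 and 128 to 133. Among all 32851 windows, 14.7% held the TEAD letters, 1.79% the cyclic AMP response element and 2.71% the NRF1 letters. A window was found for all 10 members, and the TEAD letters also stood in windows of *Lats2*, *Mob1a*, *Sav1*, *Yap1* and *Wwtr1*.

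*Stk38* was at similar levels in vehicle and KW6002 tumors, somewhat higher in every cisplatin-treated tumor and highest in every cotreated tumor. In vehicle tumors 1 to 5, its levels were 146, 162, 143, 163 and 162 CPM. In KW6002 tumors they were 144, 158, 157, 157 and 171 CPM. Cisplatin-treated tumors held 194, 193, 178, 201 and 206 CPM. The ranges of these 3 groups were narrow, and the cisplatin range lay above both others without overlap. Cotreated tumors held 310, 402, 420, 242 and 349 CPM. The lowest cotreated tumor, replicate 4, exceeded the highest cisplatin-treated tumor, and the cotreated group had the widest spread.

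Mean *Stk38* levels were 155 ± 9.90 CPM (SD, n = 5) with vehicle, 157 ± 9.78 with KW6002, 194 ± 10.4 with cisplatin and 345 ± 71.7 with cotreatment. The fitted difference of cotreated from cisplatin-treated tumors was 0.83 on the log2 scale (SE 0.10), a 1.77-fold level. Against vehicle it was 1.15 (SE 0.10) for cotreatment, a 2.22-fold level, and 0.33 (SE 0.10) for cisplatin, a 1.25-fold level. With a run term of its own for cisplatin-treated and for other tumors, here called separate run terms, the cisplatin value was 0.52. These 3 values describe the samples on which the gene was selected. Only the effect of KW6002 alone was open to a test for *Stk38*, and it gave a log2 fold change of 0.02 (SE 0.10, edgeR adjusted *P* = 0.99996).

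**Figure D1:**
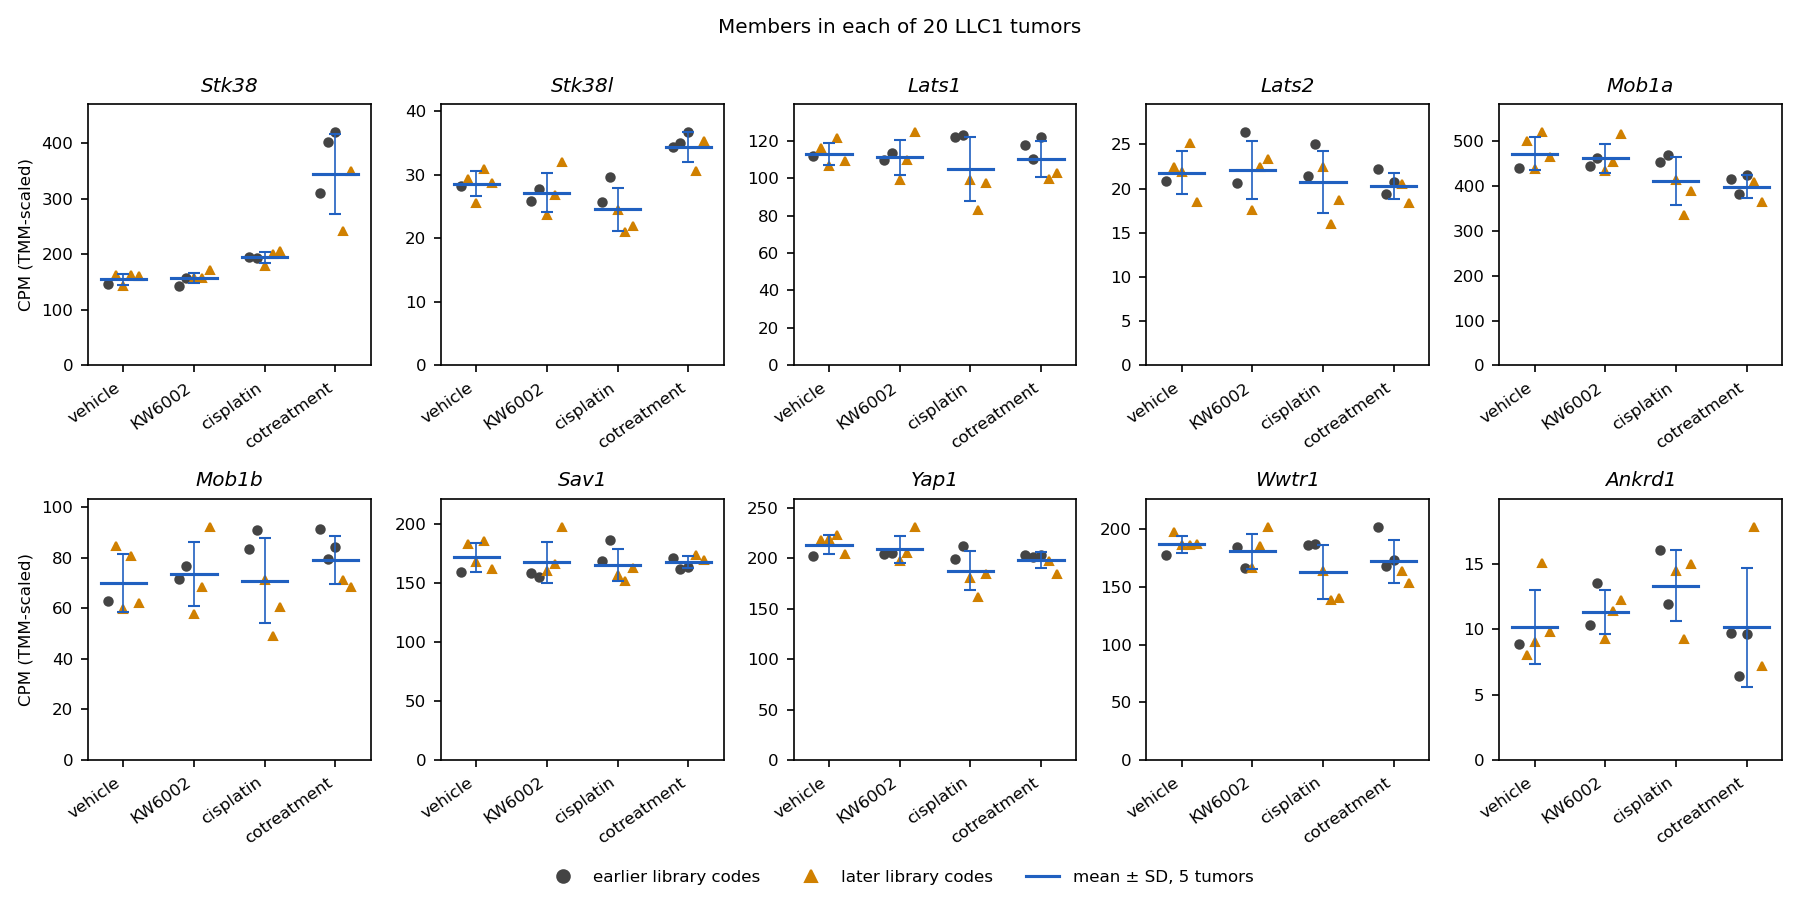
Level of each member in CPM (y axis, linear from 0) in the 5 tumors of each group (x axis), with circles for earlier and triangles for later library codes and bars for the mean and SD. *Stk38* separates cotreated tumors (242 to 420 CPM) from cisplatin-treated ones (178 to 206 CPM), *Stk38l* does so over a smaller range, and the other members overlap between these groups.

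The same order held within each run of library codes. In the earlier run, 3 cotreated tumors had 310 to 420 CPM and 2 cisplatin-treated tumors had 193 to 194 CPM. In the later run, the 2 cotreated tumors had 242 and 349 CPM, against 178 to 206 CPM in 3 cisplatin-treated tumors. The fitted difference of cotreated from cisplatin-treated tumors was 0.955 on the log2 scale in the earlier run alone and 0.60 in the later run alone. Cotreatment replicate 4, with the lowest *Stk38* level of its group, was also the tumor with the highest summed muscle level of 1169 CPM, against 1.97 to 76.4 CPM in the other cotreated tumors. Without that tumor the difference was 0.93. Summed levels of *Mki67*, *Top2a* and *Pcna*, genes of dividing cells, were 762 to 958 CPM in cotreated and 933 to 1097 CPM in cisplatin-treated tumors. The part of these marker levels in the *Stk38* values was not tested.

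The gene next after *Stk38* by *P* value in this comparison was 4930523C07Rik, with a log2 fold change of 0.79. By the size of the change, *Stk38* ranked 109 among the 382 genes called higher. It was covered by 4227 to 14587 reads per tumor.

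No gene around *Stk38* was called in the comparison on which it had been selected. Within 300 kb of its start lay 13 other protein-coding genes, of which 10 were tested. Between cotreated and cisplatin-treated tumors, 0 of the 10 were called by edgeR or DESeq2, and 2 (*Kctd20* and *Ppil1*) had an unadjusted *P* value under 0.05, while 4% of all genes were called. Both also had an adjusted *P* value under 0.05 and fell short of the size limit. Of all genes, 3883 of 16665 were under 0.05 unadjusted there. *Kctd20*, which starts 56.045 kb away, had mean levels of 167 CPM with vehicle, 171 CPM with cisplatin and 201 CPM with cotreatment. Its log2 fold change over cisplatin was 0.23 (adjusted *P* = 0.027), below the limit of 0.32 set for a call. *Srsf3*, a splicing factor gene that starts 24.6 kb on the other side, had a log2 fold change of 0.02 in the same comparison.

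With cisplatin against vehicle, 2 of the 10 neighbors were called higher and 1 lower, against 6.01% and 4.57% of all genes. With cotreatment against vehicle, 3 were higher and 2 lower (13.1% and 10.4% of all genes). Against KW6002 they were again 3 and 2 (12.6% and 10.7%), with the same cotreated tumors. *Brpf3* was called higher in both (log2 fold changes 0.34 and 0.44, edgeR adjusted *P* = 0.0015 and 0.00016). Its call over vehicle was lost in 2 of 20 fits leaving out a tumor and 2 of 9 others. Over cisplatin its value was 0.05. *Cdkn1a*, which encodes the p53-induced cell cycle inhibitor p21 and starts 82.98 kb from *Stk38*, rose from 312 ± 57.2 CPM (SD, n = 5) with vehicle to 513 ± 51.6 CPM with cisplatin (log2 fold change 0.72, adjusted *P* = 0.00026) and stood at 530 ± 56.1 CPM with cotreatment. Its log2 fold change between cotreated and cisplatin-treated tumors was 0.05 (adjusted *P* = 0.84). *Mapk13*, a p38 kinase gene, rose with cisplatin at a low level (means of 1.56 and 2.68 CPM, log2 fold change 0.78, adjusted *P* = 0.0071), a call lost with separate run terms (0.62, adjusted *P* = 0.17). *Rab44* fell with cisplatin by 1.51 on the log2 scale (adjusted *P* = 0.027), a call lost when vehicle replicate 1, 2 or 3 or cisplatin replicate 1, 2 or 3 was left out (-1.46 to -1.30), with the replicate block (-1.42), without the filter, with only the compared groups and in the later run alone (-0.83). Over all settings its value ran from -3.07 to -0.83. *Ppil1* fell in cotreated tumors against vehicle by 0.54 on the log2 scale (adjusted *P* = 2.4e-06), and its log2 fold change against cisplatin was -0.28 (adjusted *P* = 0.013).

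**Figure D2:**
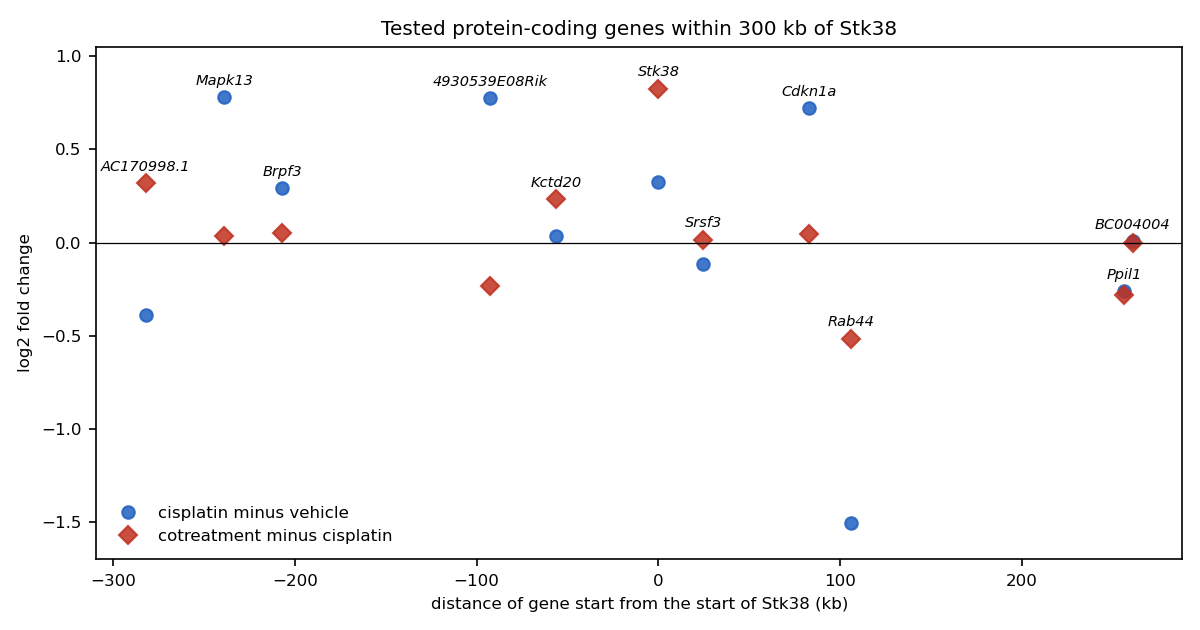
Log2 fold change (y axis) of the 10 tested neighbors and of *Stk38* against the distance of each gene's start from that of *Stk38* in kb (x axis), for cisplatin against vehicle (circles) and cotreatment against cisplatin (diamonds). *Stk38* has a cotreatment value of 0.83, while *Cdkn1a* has 0.72 for cisplatin and 0.05 for the addition of KW6002.

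The 6 genes picked as nearest to *Stk38* in pattern lay elsewhere in the genome, and none was a member. Likeness was the root mean square difference, over the 20 tumors, of log2 CPM centered on the vehicle mean, among 12743 other genes with a mean of at least 50 counts. The 6 nearest genes were *Iqck* (0.144), *Prune2* (0.148), *Adamts1* (0.150), *Tmem106b* (0.154), *Rhoj* (0.160) and *Gm15265* (0.170). They were picked by this distance over tumors that include those on which *Stk38* was selected. Their similar levels therefore follow from the choice. The median distance of all genes was 0.648, and the nearest member was *Stk38l* at 0.537. How many genes lay nearer than *Stk38l* was not counted. *Adamts1*, a secreted metalloproteinase gene, had mean levels of 249 CPM with vehicle, 227 with KW6002, 305 with cisplatin and 615 with cotreatment. *Tmem106b*, a lysosomal membrane protein gene, went through 156, 151, 191 and 315 CPM in the same order of groups.

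**Figure D3:**
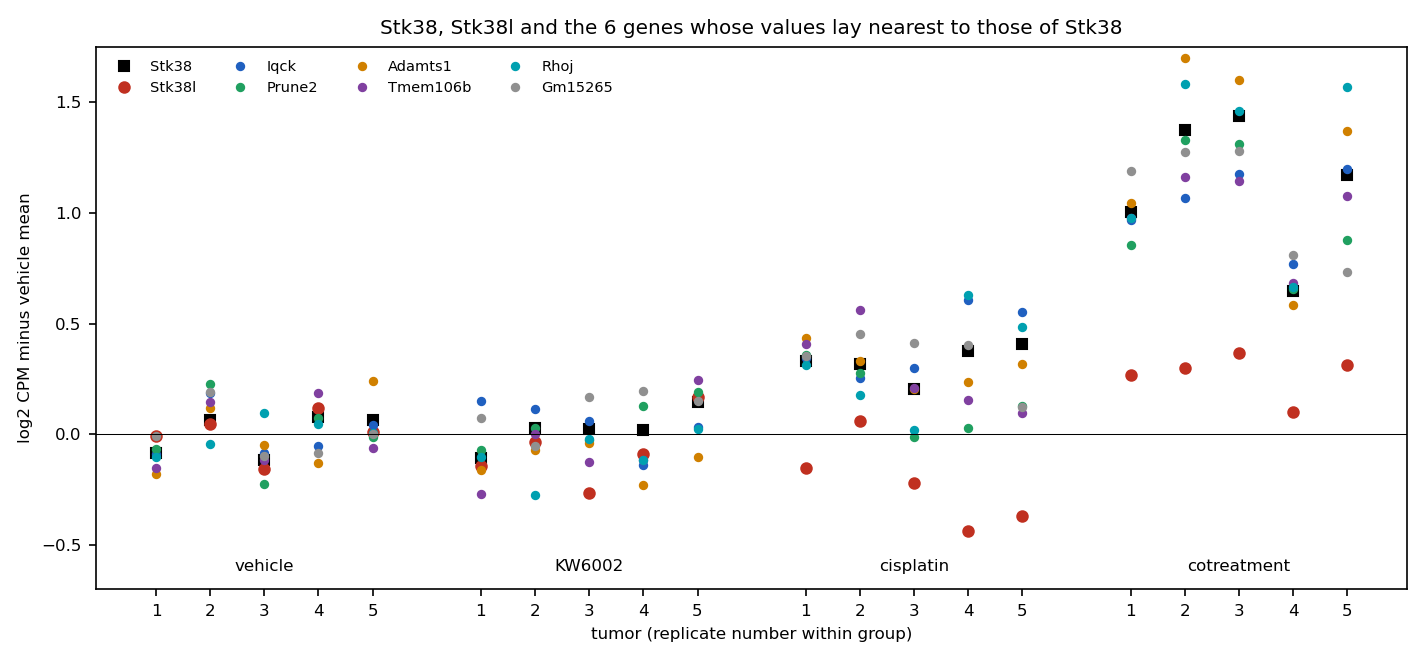
Log2 CPM minus the vehicle mean (y axis) in each tumor by group and replicate number (x axis) for *Stk38*, *Stk38l* and the 6 genes nearest to *Stk38*. These 6 genes were picked for their closeness over the tumors drawn. Cotreatment replicate 4 is the lowest cotreated tumor for *Stk38* and for each of the 6 genes but *Gm15265*, and *Stk38l* lies below its vehicle mean in 4 of 5 cisplatin-treated tumors.

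*Stk38l* (ENSMUSG00000001630, chr6:146724995-146778812, plus strand), the paralog of *Stk38*, rose in cotreated tumors over cisplatin-treated tumors and over KW6002 tumors. Its levels were 28.3, 29.4, 25.5, 30.9 and 28.6 CPM in vehicle tumors 1 to 5. KW6002 tumors had 25.8, 27.8, 23.6, 26.7 and 31.97 CPM. Cisplatin-treated tumors had 25.6, 29.7, 24.4, 21.04 and 21.99 CPM. Cotreated tumors had 34.3, 35.02, 36.7, 30.5 and 35.3 CPM. All 5 cotreated tumors lay above all 5 cisplatin-treated ones, while 1 cotreated tumor, replicate 4, lay within the vehicle and KW6002 ranges.

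The increase of *Stk38l* over cisplatin was 0.48 on the log2 scale (SE 0.09, a 1.40-fold level, edgeR adjusted *P* = 0.0041). Over KW6002 it was 0.34 (SE 0.09, adjusted *P* = 0.0055). Over vehicle the log2 fold change was 0.27 (SE 0.09, adjusted *P* = 0.023), below the limit for a call. For cisplatin against vehicle it was -0.22 (SE 0.09, adjusted *P* = 0.10). The interaction of cisplatin and KW6002, which asks whether KW6002 acted differently with cisplatin than without, was 0.56 (SE 0.13, adjusted *P* = 0.077) and was not called.

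The *Stk38l* increase over cisplatin held its call when any tumor was left out, but not in either run of library codes alone, where it was 0.34 in the earlier (adjusted *P* = 0.085) and 0.55 in the later run (adjusted *P* = 0.18). Over KW6002 the call was lost without KW6002 replicate 1 (0.3197) or KW6002 replicate 3 (0.30) and with the code run as a term (0.3172). Without cotreatment replicate 4, the log2 fold change over vehicle was 0.32 and was called.

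The LATS kinase genes showed no call in any comparison. *Lats1* (chr10:7681214-7716460) had means of 113, 111, 105 and 110 CPM with vehicle, KW6002, cisplatin and cotreatment, and single tumors ranged from 83.2 to 124.5 CPM. After cisplatin alone, it was at 121.9 and 123.2 CPM in the earlier run and 83.2 to 98.8 CPM in the later. Its log2 fold change between cotreated and cisplatin-treated tumors was 0.07 (SE 0.09, adjusted *P* = 0.66). *Lats2* (chr14:57689662-57758388), itself induced by YAP in many cells, had means of 21.8, 22.1, 20.7 and 20.3 CPM, and its log2 fold change in that comparison was -0.03 (SE 0.11, adjusted *P* = 0.89). In all 4 groups the values of both genes overlapped.

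Of the adaptors, *Mob1a* (chr6:83326016-83343776) had means of 472, 461, 411 and 398.5 CPM in the same order. Its log2 fold change between cotreated tumors and vehicle was -0.24 (SE 0.08, adjusted *P* = 0.021), short of the limit for a call, and it was -0.11 with separate run terms (adjusted *P* = 0.43). Cotreated tumors ranged from 364 to 424 CPM and vehicle tumors from 437 to 520 CPM, in groups that differed in their share of later codes. After cisplatin alone, *Mob1a* was at 453 and 468 CPM in the earlier run and 334 to 413 CPM in the later. *Mob1b* (chr5:88720855-88764220) varied more between tumors of a group, from 49.1 to 90.96 CPM after cisplatin alone, and its means were 70.04, 73.5, 71.02 and 79.1 CPM. Those cisplatin-treated tumors had 83.4 and 90.96 CPM in the earlier run and 49.1 to 71.1 CPM in the later. *Sav1* (chr12:69965012-69987002) had means from 165 to 172 CPM and log2 fold changes from -0.05 to 0.06 over the 6 comparisons. Part of *Sav1* lies opposite *Atl1* and pseudogenes on the other strand, and the strand setting of the read counting is not given in the sources used here.

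The effectors were close to level. *Yap1* (chr9:7931999-8004596) had means of 213 ± 9.52 CPM with vehicle, 209 ± 13.1 with KW6002, 188 ± 19.4 with cisplatin and 198 ± 7.87 with cotreatment (SD, n = 5). Its log2 fold change with cisplatin was -0.18 (SE 0.06, adjusted *P* = 0.048), which missed the limit on size, and it was -0.04 with separate run terms (adjusted *P* = 0.80). *Wwtr1* (chr3:57455649-57575910) had means of 187, 181, 163 and 172 CPM and a log2 fold change of -0.20 (SE 0.09, adjusted *P* = 0.12) with cisplatin. Among cisplatin-treated tumors, *Yap1* was at 199 and 212 CPM in the earlier run and 161 to 184 CPM in the later. *Wwtr1* was at 186 and 187 CPM in the earlier run and 139 to 163 CPM in the later. Between cotreated and cisplatin-treated tumors, the log2 fold change was 0.08 for *Yap1* (adjusted *P* = 0.49) and 0.08 for *Wwtr1* (adjusted *P* = 0.62). In the later run alone, *Wwtr1*, *Mob1a* and *Stk38l* were called lower with cisplatin than with vehicle, at log2 fold changes of -0.34, -0.32 and -0.33.

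*Ankrd1* (chr19:36111961-36120099), a muscle ankyrin repeat protein gene that YAP and TAZ are known to induce, was the least abundant member in raw reads, with 229 to 648 per tumor. Vehicle tumors had 8.88, 8.05, 9.04, 15.03 and 9.78 CPM, and KW6002 tumors had 10.3, 13.5, 9.21, 11.4 and 12.2 CPM. Cisplatin-treated tumors had 16.1, 11.9, 14.4, 9.23 and 14.99 CPM. Cotreated tumors had 9.66, 6.39, 9.62, 17.8 and 7.18 CPM. The groups overlapped, and cotreatment replicate 4 stood above all other tumors. The log2 fold change between cotreated and cisplatin-treated tumors was -0.39 (SE 0.23, adjusted *P* = 0.32). Without cotreatment replicate 4, the tumor with the most muscle RNA, it was -0.70 and was called (adjusted *P* = 0.024). The part of muscle RNA in the *Ankrd1* values was not tested.

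**Figure D4:**
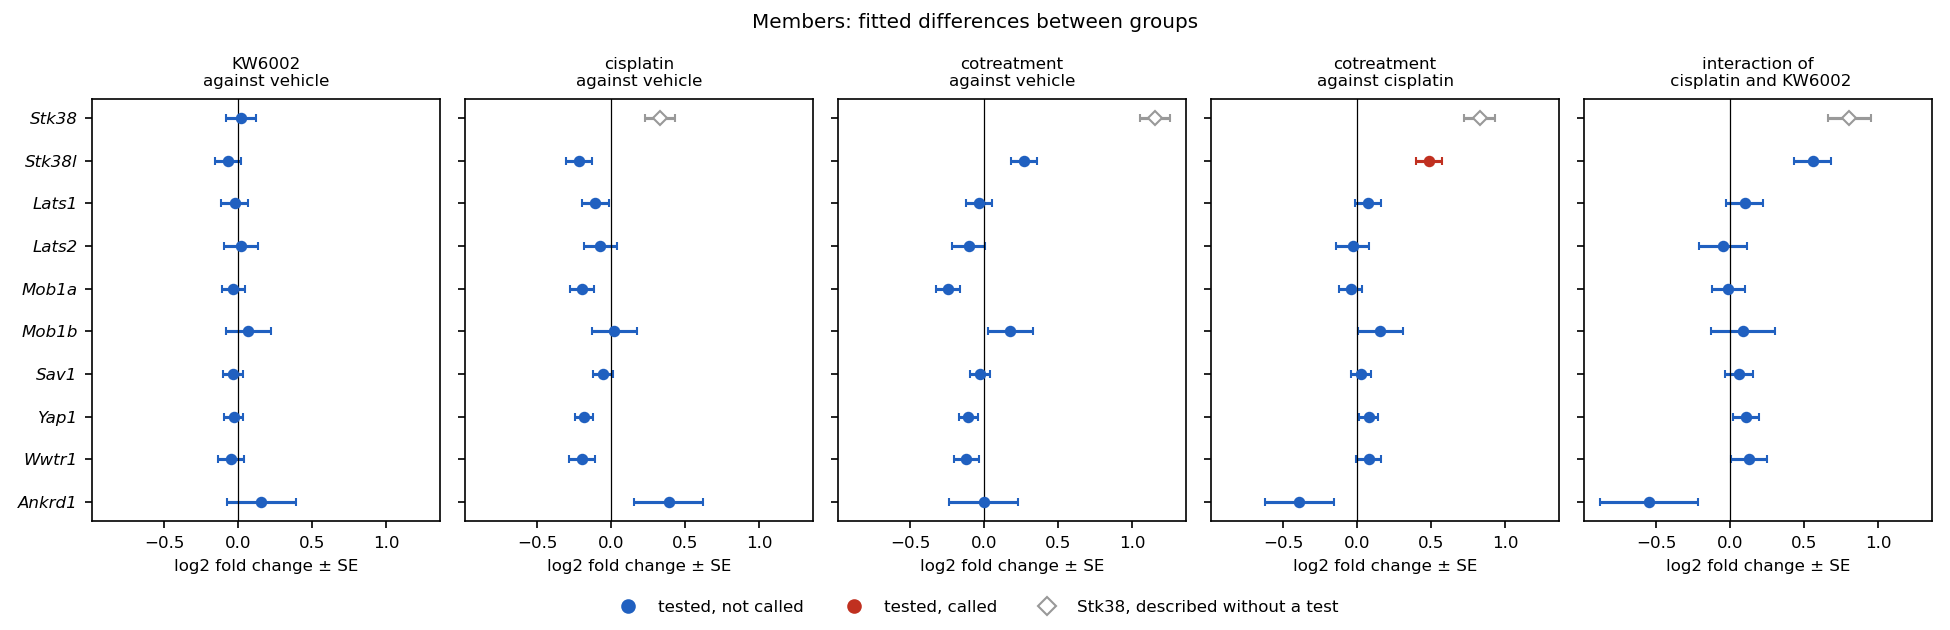
Log2 fold change with its SE (x axis) of each member (y axis) in 5 comparisons (panels; cotreatment against KW6002 is not drawn), with open diamonds where *Stk38* is described without a test. *Stk38l* between cotreated and cisplatin-treated tumors (0.48) is the only called value among those drawn, and its value over KW6002 (0.34) was called too.

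Per length, the members spanned a wide range of levels. Dividing by the kb of annotated exon, *Mob1a* was the most abundant in vehicle tumors with 98.4 CPM per kb, followed by *Wwtr1* (39.1), *Sav1* (32.6), *Yap1* (23.02), *Lats1* (15.5), *Stk38* (13.4), *Stk38l* (5.85), *Mob1b* (4.66), *Ankrd1* (3.52) and *Lats2* (3.13). From *Mob1a* down to *Stk38l*, the ranges over the 5 vehicle tumors did not overlap between neighbors in this order. Those of *Stk38l* and *Mob1b*, of *Mob1b* and *Ankrd1*, and of *Ankrd1* and *Lats2* did. With cotreatment, *Stk38* stood at 29.8 CPM per kb, and its range of 20.96 to 36.3 overlapped those of its neighbors *Sav1* and *Yap1*. The order of the remaining 9 members was the same in all 4 groups.

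Read by comparison, the members other than *Stk38* gave few calls. A gene was called when its edgeR adjusted *P* value was under 0.05 and its log2 fold change at least 0.32 in size. Between KW6002 and vehicle, 0 of 9 were called by edgeR or DESeq2, and 0 had an unadjusted *P* value under 0.05. Over all genes this comparison called 0%, with 339 genes under 0.05 unadjusted. Between cisplatin and vehicle, 0 of 9 were called by edgeR or DESeq2, 4 were under 0.05 unadjusted, and their median log2 fold change was -0.11. Of all genes, 10.6% were called there, with 5143 of 16665 under 0.05 unadjusted and a median of 0.00041. Between cotreatment and vehicle, 0 of 9 were called by either tool, with 2 under 0.05 unadjusted and a median of -0.04. Of all genes, 23.5% were called there, with 7450 of 16665 under 0.05 unadjusted and a median of -0.02. The share of members called in each of these comparisons was no higher than among all genes.

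Between cotreated and cisplatin-treated tumors, 1 of 9 was called, *Stk38l*, against 4% of all genes. The median log2 fold change was 0.07 for the 9 members and -0.01 for all genes. Between cotreatment and KW6002, again 1 of 9 was called, also *Stk38l*, against 23.3% of all genes, and the medians were -0.07 and -0.01. These comparisons share their cotreated tumors. In the interaction of cisplatin and KW6002, 0 of 9 were called by edgeR, 1 was under 0.05 unadjusted and 1 (*Stk38l*, 0.56) was called by DESeq2. Over all genes the interaction called 0.066% by edgeR, with 2034 of 16665 under 0.05 unadjusted, and DESeq2 called 263 of 35226.

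A wider list of 43 Hippo regulators, all of them tested, included calls among cadherins, TEAD factors and the NDR scaffold *Fry*. With cisplatin against vehicle, 3 were called higher (6.01% of all genes were) and 4 lower (4.57% of all genes were), with a list median of -0.02. With cotreatment against vehicle, 3 were higher (13.1% of all genes) and 5 lower (10.4%), with a median of -0.03. Of these lower calls, *Amot* (-0.33) was lost in 16 of 20 fits leaving out a tumor and in 6 of 9 other fits. The *Stk3* call (-0.34) was lost in 5 of 20 and 2 of 9, and that of *Fat4* (-0.55) in 1 of 20 and 2 of 9. Between cotreatment and cisplatin, 2 were higher (2.29% of all genes) and 2 lower (1.71%), with a median of 0.01. Between cotreatment and KW6002, 3 were higher (12.6%) and 3 lower (10.7%). The list held 0 calls between KW6002 and vehicle by edgeR or DESeq2, with 1 gene under 0.05 unadjusted. It also held 0 edgeR calls in the interaction, with 8 under 0.05 unadjusted and 1 DESeq2 call. Over all genes the interaction had 2034 of 16665 under 0.05 unadjusted and 263 DESeq2 calls among 35226 genes.

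*Fry*, which encodes a large scaffold that binds and activates NDR kinases, fell with cisplatin and was higher again with cotreatment. Its levels were 5.28, 4.47, 3.69, 5.20 and 5.48 CPM in vehicle tumors. In cisplatin-treated tumors they were 2.74, 2.72, 3.27, 2.88 and 3.27 CPM, all below the vehicle range. Cotreated tumors held 4.43, 4.55, 4.98, 4.10 and 3.96 CPM, all above the cisplatin range and within the vehicle range. The log2 fold change was -0.70 for cisplatin against vehicle (SE 0.12, adjusted *P* = 0.00040) and 0.56 for cotreatment against cisplatin (SE 0.12, adjusted *P* = 0.0071). The second call was lost in the later run alone (0.36) and in the earlier run alone (0.76, adjusted *P* = 0.063). The interaction was 0.56 (adjusted *P* = 0.15). The paralog *Fryl* and the NDR-binding adaptor *Mob2* were not called in any comparison, with log2 fold changes between cotreated and cisplatin-treated tumors of 0.12 and 0.05.

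Among the upstream kinases, *Stk3* fell with cisplatin from 109 ± 12.2 to 85.7 ± 11.02 CPM (SD, n = 5; log2 fold change -0.35, adjusted *P* = 0.010) and stood at 86.3 ± 6.32 CPM with cotreatment. Its cisplatin call was lost without vehicle replicate 2 (-0.30), vehicle replicate 4 (-0.30), cisplatin replicate 4 (-0.29) or cisplatin replicate 5 (-0.30), and with separate run terms (-0.13, adjusted *P* = 0.51). *Stk4* fell with cotreatment against vehicle, from 95.7 ± 5.02 to 70.3 ± 6.15 CPM (log2 fold change -0.45, adjusted *P* = 7.9e-05). With cisplatin alone it was at 80.1 ± 8.89 CPM (-0.26, adjusted *P* = 0.018), short of the limit on size. Between cotreatment and cisplatin its log2 fold change was -0.19 (adjusted *P* = 0.12). *Nf2*, which encodes the upstream regulator merlin, had means of 129 to 132 CPM in all groups and no call. *Wwc1*, which encodes the scaffold KIBRA, fell from 27.2 ± 1.97 CPM with cisplatin to 21.5 ± 0.546 CPM with cotreatment (-0.34, adjusted *P* = 0.015). That call was lost without cisplatin replicate 5 (-0.29) or cotreatment replicate 3 (-0.33, adjusted *P* = 0.051). It was also lost in the later run alone (-0.37, adjusted *P* = 0.33) and in the earlier run alone (-0.30, adjusted *P* = 0.098).

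Of the 3 atypical cadherins, 1 was called higher and 2 lower with cisplatin, against 6.01% and 4.57% of all genes. *Fat1* rose from 60.1 ± 3.39 CPM with vehicle to 111 ± 18.9 CPM with cisplatin (0.89, adjusted *P* = 7.5e-05) and 104 ± 16.8 CPM with cotreatment (0.79, adjusted *P* = 5.7e-05). *Fat4* fell from 2.24 ± 0.401 to 1.23 ± 0.178 CPM with cisplatin (-0.85, adjusted *P* = 0.0016). The other lower gene, *Dchs1*, lies outside the rule for named genes and is named here after its values were seen (-0.42, adjusted *P* = 0.0092; -0.32 and not called in the later run alone). Between cotreated and cisplatin-treated tumors *Fat1* and *Fat4* were not called, with log2 fold changes of -0.10 and 0.31. The *Fat4* call with cisplatin was lost with separate run terms (-0.81, adjusted *P* = 0.058). All 5 endothelial markers were also lower with cisplatin. Of 7 fibroblast markers 3 were lower and 0 higher, while *Col1a1* (0.95) and *Col1a2* (0.92) had positive log2 fold changes that were not called, and the summed fibroblast level overlapped between vehicle (9810 to 12826 CPM) and cisplatin (8551 to 14247 CPM). Their part in the *Fat4* values was not tested. The 7 genes of the STRIPAK phosphatase complex, which opposes MST kinases, gave 0 calls by edgeR or DESeq2 in each of the 6 comparisons, where between 0% and 23.5% of all genes were called, with at most 1 gene under 0.05 unadjusted and log2 fold changes between -0.19 and 0.24.

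The DNA-binding partners of YAP and TAZ divided. *Tead1* had means of 363 to 401 CPM and *Tead2* of 65.02 to 69.7 CPM, and neither was called. *Tead3* rose in steps. Its levels were 14.6, 12.97, 17.3, 11.6 and 14.2 CPM with vehicle. Cisplatin-treated tumors had 20.2, 19.9, 22.5, 21.04 and 20.99 CPM, all above the vehicle range. Cotreated tumors had 27.3, 34.1, 28.1, 22.9 and 26.1 CPM, all above the cisplatin range. The log2 fold change was 0.57 for cisplatin against vehicle (adjusted *P* = 0.00091), 0.97 for cotreatment against vehicle (adjusted *P* = 9.7e-07) and 0.40 for cotreatment against cisplatin (adjusted *P* = 0.022). The last of these lost its call without cotreatment replicate 2 (0.32, adjusted *P* = 0.082) or cotreatment replicate 3 (0.40, adjusted *P* = 0.062), in the later run alone (0.19), and with only the compared groups (0.40, adjusted *P* = 0.055).

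*Tead4* rose with cotreatment against vehicle, from 25.6 ± 1.72 to 38.1 ± 7.27 CPM (0.58, adjusted *P* = 0.00028), and had a log2 fold change of 0.28 over cisplatin (adjusted *P* = 0.11). In the later run alone its value against vehicle was 0.35 and the call was lost (adjusted *P* = 0.081). *Amot*, whose protein angiomotin holds YAP at junctions, fell between cisplatin and cotreatment from 65.9 ± 11.3 to 48.7 ± 8.18 CPM (-0.44, adjusted *P* = 0.035). Its ranges overlapped, and the call was lost when cisplatin replicate 1 (-0.40), 2 (-0.37) or 5 (-0.40) or cotreatment replicate 2 (-0.47), 3 (-0.43) or 5 (-0.35) was left out. It was also lost without the filter (-0.43, adjusted *P* = 0.105) and with only the compared groups (-0.44, adjusted *P* = 0.115). In the later run alone (-0.53, adjusted *P* = 0.227) and the earlier run alone (-0.50, adjusted *P* = 0.066) the call was lost too.

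**Figure D5:**
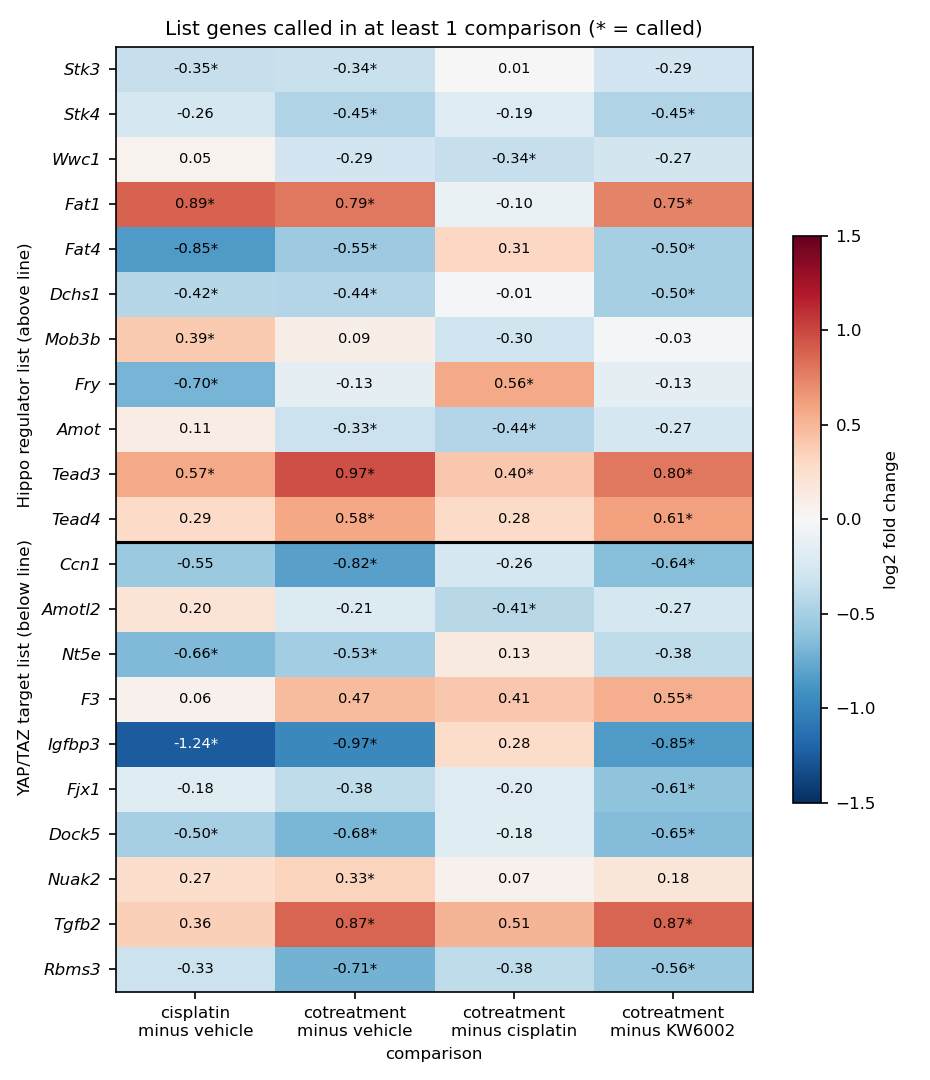
Log2 fold change (color and number) of the 21 list genes called at least once (rows, 11 regulators above the line and 10 targets below) in 4 comparisons (columns), with an asterisk for a call. *Fry* is lower with cisplatin (-0.70) and higher with cotreatment over cisplatin (0.56), and *Tead3* is called higher in each column.

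Among known targets of YAP and TAZ, edgeR called more lower than higher in each comparison with calls, while log2 fold changes went both ways. Of 20 genes on the list, all tested, 0 were called higher and 3 lower with cisplatin against vehicle, where 6.01% of all genes were higher and 4.57% lower. With cotreatment against vehicle 2 were higher and 5 lower (13.1% and 10.4% of all genes). Between cotreatment and cisplatin 0 were higher and 1 lower (2.29% and 1.71% of all genes), with 5 under 0.05 unadjusted and 4 DESeq2 calls. Over all genes that comparison had 3883 of 16665 under 0.05 unadjusted and 872 DESeq2 calls. Between cotreatment and KW6002, 2 were higher and 5 lower (12.6% and 10.7% of all genes). The list medians in these comparisons were 0.02, 0.02, 0.01 and 0.01, and 10, 11, 11 and 10 of the 20 log2 fold changes were positive. These comparisons share tumors. Between KW6002 and vehicle the list held 0 calls by edgeR or DESeq2 and 0 genes under 0.05 unadjusted. In the interaction it held 0 edgeR calls, 3 genes under 0.05 unadjusted and 1 DESeq2 call. All genes gave 2034 of 16665 under 0.05 unadjusted there and 263 of 35226 called by DESeq2.

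Of the classical targets, *Ccn1*, which encodes a matricellular protein, fell with cotreatment against vehicle from 52.6 ± 10.2 to 29.8 ± 3.49 CPM (-0.82, adjusted *P* = 0.0080). Its level with cisplatin alone was 35.8 ± 15.1 CPM. *Ccn2*, its relative, was not called, with means of 11.1, 8.84, 7.58 and 12.999 CPM over vehicle, KW6002, cisplatin and cotreatment. *Igfbp3*, an IGF-binding protein gene, fell with cisplatin from 168 ± 30.6 to 70.8 ± 23.2 CPM (-1.24, adjusted *P* = 0.0013) and stood at 85.7 ± 19.7 CPM with cotreatment. *Dock5* fell with cisplatin by 0.50 and with cotreatment by 0.68 on the log2 scale (adjusted *P* = 0.00096 and 1.1e-05). *Nt5e*, which encodes the adenosine-producing enzyme CD73, fell from 13.1 ± 1.72 to 8.27 ± 1.22 CPM with cisplatin (-0.66, adjusted *P* = 0.0048). With separate run terms the cisplatin calls of *Igfbp3* (-1.21, adjusted *P* = 0.053) and *Nt5e* (-0.65, adjusted *P* = 0.082) were lost, and in the later run alone the *Ccn1* call was (-0.76, adjusted *P* = 0.10). All 5 endothelial markers were called lower in both comparisons with vehicle (*Pecam1* -1.02 and *Cdh5* -1.27 with cisplatin), as were all 3 red blood cell genes (*Hbb-bs*, from a mean of 44.5 to 0.022 CPM with cisplatin). Of 4 tested neutrophil genes, 1 was called lower with cisplatin and 3 with cotreatment (*S100a8* -1.55 and -2.05). The part of these markers in the target values was not tested.

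In the other direction, *Tgfb2*, a TGF-β ligand gene, rose with cotreatment against vehicle from 2.06 ± 0.512 to 3.76 ± 0.386 CPM (0.87, adjusted *P* = 0.00030), while *Rbms3* fell (-0.71, adjusted *P* = 0.00024). With cisplatin alone, *Tgfb2* had a mean of 2.65 CPM. Means of *Rbms3* were 22.5 CPM with vehicle, 17.9 with cisplatin and 13.7 with cotreatment. *Axl*, a receptor tyrosine kinase gene, had means of 781 to 848 CPM and was not called. *Amotl2* was the target called between cotreated and cisplatin-treated tumors, at 22.1 ± 1.62 against 29.3 ± 6.02 CPM (-0.41, adjusted *P* = 0.038). Its ranges overlapped. Its call was lost with the code run as a term (-0.39), in the later run alone (-0.51) and in the earlier run alone (-0.21). It was also lost when any of 9 tumors was left out (KW6002 replicates 3 and 4, cisplatin replicates 3, 4 and 5, and cotreatment replicates 1, 2, 3 and 5), with values from -0.43 to -0.29.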

How the data were processed

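Bulk RNA of 20 tumors was prepared with a stranded poly(A) kit and sequenced as single reads of 50 bases. Per the labels and the methods, the authors aligned reads to mm10 with STAR, demultiplexed with bcl2fastq 2.17.1.14 and counted reads per gene with HTSeq 0.6.1p1. The deposited values were raw counts per gene, with no normalization. All 20 count columns matched a sample, and replicate libraries differed by more than counting noise (lowest chi-square per degree of freedom 8.01 over 40 pairs). Symbols, positions and exon lengths came from GENCODE M21 (GRCm38), which held 35142 of the 35226 IDs.

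Genes were filtered with filterByExpr, scaled by TMM and fitted by the edgeR 4.0.16 quasi-likelihood test (R 4.3.3) with 4 group means over all tumors. *P* values were adjusted over 16665 genes by Benjamini-Hochberg. CPM used TMM-scaled totals, and log2 CPM a prior count of 2. Totals of 28371364 to 40965731 reads bound the precision, and counting error alone understates the error between tumors. The procedure was tested on simulated data. Alternatives were DESeq2 1.42.0, relative log expression scaling, other filters, terms for replicate number (replicate block) and code run, the latter also with separate terms for tumors with and without cisplatin, each run alone, only the compared groups, and leaving out each tumor.

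The members and lists were chosen with earlier results of these data known. Named genes were the members, set pathway genes, up to 4 called genes with the smallest adjusted *P* per list in each of 3 comparisons, protein-coding genes within 300 kb of *Stk38*, and the 6 genes nearest to it in pattern. Vehicle replicate 1 is titled in another form than the other vehicle samples and was counted in that group.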

Additional observations from a re-analysis of the deposited data

Results flagged for a closer look

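In 40 sets of 5 tumors (10 members in 4 groups), 4 held a tumor whose gap to its nearest neighbor was larger than Dixon's 95% critical value of 0.71 of the range, and chance alone gives about 1 in 20. Vehicle replicate 4 had an *Ankrd1* level of 15.03 CPM, against 9.783 CPM for the next highest tumor. Cotreatment replicate 4 had an *Ankrd1* level of 17.83 CPM, against 9.664 CPM for the next. KW6002 replicate 5 was highest of its group for *Sav1*, at 197.9 CPM against 166.4 CPM, and for *Yap1*, at 231.3 CPM against 205.1 CPM. That tumor was also the highest of its group for *Stk38*, *Stk38l*, *Lats1*, *Mob1a*, *Mob1b* and *Wwtr1*. It had the lowest total of counted reads of all tumors. Sets of the same tumors are not independent, so the rate of 1 in 20 is only a guide. Summed muscle genes stood at 1169 CPM in cotreatment replicate 4, at 246.8 CPM in KW6002 replicate 5 and at 2.89 CPM in vehicle replicate 4. Their part in these values was not tested.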

How the results depend on the processing

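Of 3217 refits of 110 single-gene values, 3031 kept their call or stayed uncalled within the spread between tumors, 155 lost a call, 10 gained one, 21 uncalled or untested values moved by more than that spread and 0 reversed a called value. The sign turned in 92 refits of 33 values, none called in the main or the refit, such as *Wwtr1* with cisplatin (-0.20, and 0.02 with separate run terms). The cause was not tested. For *Stk38* over cisplatin, leaving out 1 tumor gave 0.747 (without cotreatment replicate 3) to 0.931 (without cotreatment replicate 4). Calls among the other 9 members became 3 for cisplatin against vehicle in the later run alone. For cotreatment against vehicle they became 1 with separate run terms and 0 to 1 leaving out a tumor. Over cisplatin they were 0 in either run alone and 1 to 2 leaving out a tumor. Over KW6002 they were 0 with a code run term or in the later run alone, and 0 to 1 leaving out a tumor. In the interaction they were 1 by DESeq2 and 0 to 1 leaving out a tumor (1 without KW6002 replicate 5, cisplatin replicate 2 or cotreatment replicate 4). Regulators called with cisplatin against vehicle became 4 with separate run terms and 12 in the later run. Over cisplatin they were 0 in the later run, 2 in the earlier run, 2 with only the compared groups and 1 to 5 leaving out a tumor (2 without cisplatin replicate 5 or cotreatment replicate 2, 1 without cotreatment replicate 3). DESeq2 called 1 regulator and 1 target in the interaction. Targets called with cisplatin against vehicle became 1 with separate run terms and 3 to 5 leaving out a tumor (5 without cisplatin replicate 5). With cotreatment against vehicle they became 4 with separate run terms or in the later run. Over cisplatin they were 4 by DESeq2, 2 with at least 10 counts in every tumor, 0 to 2 leaving out a tumor, and 0 with no filter, a code run term, separate run terms, the later run or only the compared groups. Over KW6002 they went from 7 to 3 in the later run and 4 to 8 leaving out a tumor (4 without KW6002 replicate 1 or 3).

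Over all genes, calls between cotreatment and cisplatin fell from 667 to 322 in the earlier run, 217 with only the compared groups and 1 in the later run (2206 unadjusted), and ran from 289 to 1013 leaving out 1 tumor (289, 295 and 396 without cotreatment replicate 2, cotreatment replicate 3 or cisplatin replicate 3, and 1013 without cotreatment replicate 4). Cotreatment calls in the later run alone were 2209 against vehicle and 1654 against KW6002, and cisplatin calls against vehicle were 2743 there and 1104 with separate run terms. Calls in the interaction went from 11 to 263 by DESeq2, 39 with at least 10 counts, 26 with separate run terms, 21 with no filter, 17 with a code run term and 0 with a replicate block or in the later run, and ran from 0 to 229 leaving out 1 tumor (229 without cotreatment replicate 4). Replicate numbers did not pair tumors: 12 of 30 same-numbered pairs correlated over 0.1 (median -0.0258), and 5 of 20 tumors correlated best with their own number. With the replicate block, *Stk38* over cisplatin was 0.8153 and targets called over cisplatin were 0. The earlier run held 1 vehicle tumor, so comparisons with vehicle were not fitted there.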
